A study of Mus musculus with 2 samples.

Results

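STAT5 regions lying deep inside genes, more than 10 kb from the start of their gene, made up 1967 of the 5703 regions of the IL-2 library (34.5%, Wilson 95% interval 33.3 to 35.7%). Each region was assigned to the listed gene whose start was nearest, and was kept where it lay in that gene at a distance above 10000 bp. Of 5703 regions, 1569 lay within 1 kb of a start, 859 in a gene at 1 to 10 kb, 774 upstream beyond 1 kb and 534 downstream of the gene end. The deep regions fell in 1059 host genes, 21.5% of the 4934 listed genes. Binding was measured by ChIP-seq, the sequencing of DNA fragments pulled down with an antibody to a protein, in C57BL/6 mouse OT-I CD8 T cells, whose transgenic receptor recognises the ovalbumin peptide SIINFEKL. The cells had been transferred into mice, primed there with that peptide and agonists of CD134 and CD137, and sorted from spleens 4 days later. Culture for 1 hour followed, with no IL-2 for the control library and with IL-2 at 0.5 µg/ml for the other, and the labels do not say how many animals were pooled. With 1 library per group no difference between them could be tested.

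STAT5A and STAT5B are transcription factors that JAK kinases phosphorylate at the IL-2 receptor. They then pair, enter the nucleus and bind DNA at a palindromic element, TTC and GAA separated by a short spacer. Enhancers of T cell genes often lie within introns, far from the start of transcription, and some genes hold further promoters inside their body. The deposited table gives no exon positions, so whether a region lay in an exon or an intron was not determined here. It measures binding and no RNA, so the labelled cell type could not be checked by expression markers.

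Some deep regions lay at annotated starts inside the host gene. RefSeq start windows (GRCm38.p6, the mm10 assembly) were at hand for the chromosomes of 1896 deep regions and not for the other 71. Of the 1896, 58 (3.06%) lay within 1000 bp of an annotated start, 42 nearest to another start of the host itself and 16 nearest to a start of another gene. For comparison, 1.00% of the 120 Mb of host gene body beyond 10 kb lay within 1000 bp of a start. Within 300 bp there were 28 deep regions (1.48%), against 0.308% of that gene body. Among deep regions with a height, the median IL-2 height was 19 for the 11 within 1000 bp of a start and 20 for the other 390.

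The position of a deep region fell within the 250 bases before a start for 10 start windows, and these give the sequence at the region. The spaced element TTCNNNGAA, which reads the same on both strands, was present in 3 of the 10 and the form with 4 spacer bases, also its own reverse complement, in 1. Among the windows that held a region of the class within 1 kb of a start, 153 of 339 (45.1%) had TTCNNNGAA, and among all 32851 windows 7.02% had it (5.85% had the form with 4 spacer bases). The 3 windows with the element follow, with matches to either form in capitals, 5′ to 3′ on the strand of the annotated start. They are shown because the position of the region and the element can be placed within the same window.
Gm11342 start inside Cmah (chr13:24375951-24376200, minus strand): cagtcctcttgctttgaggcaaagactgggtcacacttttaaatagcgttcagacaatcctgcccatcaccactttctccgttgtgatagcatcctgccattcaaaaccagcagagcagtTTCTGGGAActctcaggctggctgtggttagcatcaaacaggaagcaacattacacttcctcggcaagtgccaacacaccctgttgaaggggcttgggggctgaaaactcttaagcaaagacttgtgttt
Gm30814 start inside St6gal1 (chr16:23326683-23326932, minus strand): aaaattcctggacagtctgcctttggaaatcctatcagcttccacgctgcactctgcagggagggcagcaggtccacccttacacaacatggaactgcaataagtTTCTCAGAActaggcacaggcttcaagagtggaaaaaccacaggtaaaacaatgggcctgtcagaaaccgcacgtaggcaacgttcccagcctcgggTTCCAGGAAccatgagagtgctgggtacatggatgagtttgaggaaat
Gm40696 start inside Cabin1 (chr10:75696888-75697137, plus strand): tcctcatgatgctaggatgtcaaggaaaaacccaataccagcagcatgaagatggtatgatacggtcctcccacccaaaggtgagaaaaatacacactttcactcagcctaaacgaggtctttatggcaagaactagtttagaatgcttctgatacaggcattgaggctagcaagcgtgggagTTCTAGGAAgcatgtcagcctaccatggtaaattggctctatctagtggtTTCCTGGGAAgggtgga
In Cmah, which encodes an enzyme of sialic acid modification, the region lay 48.66 kb into the gene, at base 121 of the window, and TTCTGGGAA began at base 121. In St6gal1, a sialyltransferase gene, the region at 102.04 kb fell at base 149, between TTCTCAGAA from base 106 and TTCCAGGAA from base 203. In Cabin1, which encodes an inhibitor of calcineurin, the region at 67.27 kb fell at base 201, beside TTCTAGGAA from base 184, and TTCCTGGGAA began at base 234. Cabin1 had 2 regions, both deep, and the mean of their heights was 3 in the control library and 56 in the IL-2 library. Their IL-2 heights were 97 and 15, and the table does not say which of them lay at this start.

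Regions at internal starts without the element included those of Lck and Rbpj. Lck, the kinase that begins T cell receptor signalling, is known to have a distal and a proximal promoter. A deep region at 15.21 kb fell at base 191 of the window before an internal Lck start, and a further one lay at 18.92 kb. The mean over the 5 regions of Lck was 4.4 in control and 21 with IL-2, with a highest peak of 33. In Rbpj, the DNA-binding partner of Notch, the region at 34.37 kb fell at base 49 of its window, and all 5 regions were deep, with means of 4.6 and 36.8. These windows are shown to set regions without either form beside those above.
Lck internal start (chr4:129558373-129558622, minus strand): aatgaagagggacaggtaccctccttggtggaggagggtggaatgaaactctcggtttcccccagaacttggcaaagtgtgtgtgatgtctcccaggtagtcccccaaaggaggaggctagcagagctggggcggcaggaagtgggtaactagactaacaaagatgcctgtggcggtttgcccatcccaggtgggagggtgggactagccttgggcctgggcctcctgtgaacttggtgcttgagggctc
Rbpj internal start (chr5:53590096-53590345, plus strand): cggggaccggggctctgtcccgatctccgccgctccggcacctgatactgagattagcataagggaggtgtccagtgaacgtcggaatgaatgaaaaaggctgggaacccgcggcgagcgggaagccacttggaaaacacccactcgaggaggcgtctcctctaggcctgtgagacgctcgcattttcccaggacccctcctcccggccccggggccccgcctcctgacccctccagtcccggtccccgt
Other deep regions close to a start of their host lay in Dock10 (104 bp from it), Il16 (147 bp), Adar (162 bp), Lef1 (442 bp), Dnmt3a (352 bp) and Foxp1 (502 bp). Those of Adar and Dnmt3a had heights of their own, 4 in control and 46 with IL-2 at Adar, an RNA-editing enzyme, and 3 and 24 at Dnmt3a, a DNA methyltransferase. A window without the letters gives no information on bases outside it.

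The distance from the gene start had a median of 42350 bp (interquartile range 21325 to 87161 bp) and ran from 10006 to 1168202 bp. Between 10 and 20 kb there were 460 regions (23.4%), between 20 and 50 kb 643, between 50 and 100 kb 465, between 100 and 200 kb 264, and beyond 200 kb 135 (6.86%). On the near side of the threshold the closest regions in a gene lay at 9937 bp in Adora2a, 9955 bp in Gabrr2 and 9999 bp in Znrf3. On the far side they lay at 10006 bp in Ets1, 10020 bp in Pip5k1c and 10025 bp in Apbb1ip. Regions just inside and just outside thus formed a continuous series. The farthest were a pair in Pde4d, which encodes a cyclic AMP phosphodiesterase, at 1166.96 and 1168.20 kb. The next 8 lay in Wwox (6 of them, from 738.83 to 794.46 kb), in Celf2 at 723.70 kb and in Fhit at 708.88 kb. That Fhit region was 306 bp from another annotated start of the gene.

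**Figure D1:**
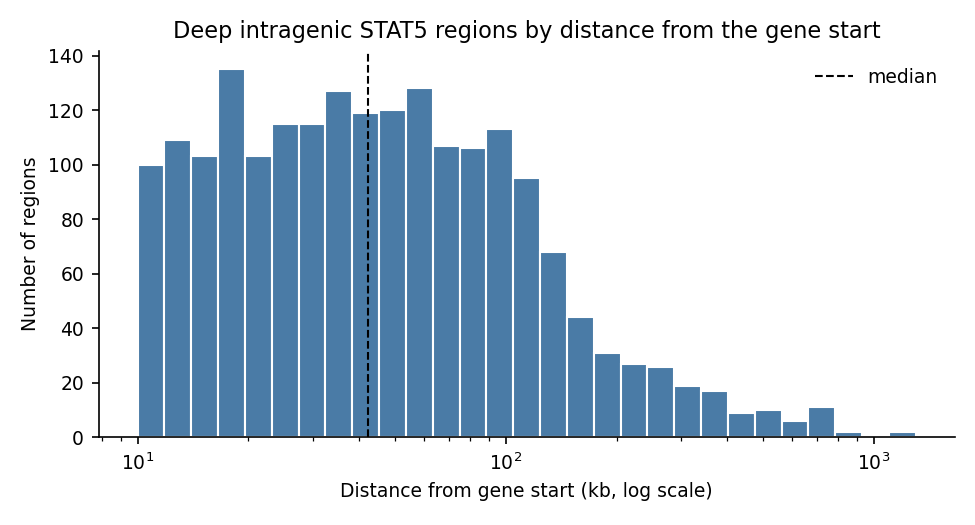
Number of deep regions (vertical axis) by distance from the start of the host gene in kb on a log axis. The dashed line is the median, 42350 bp, and counts fall off beyond about 100 kb.

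Regions thinned out with distance when set against the gene body at hand. Over 21883 protein-coding genes there were 37.8 regions per Mb in the first 1 kb and 5.84 between 1 and 10 kb. Beyond 10 kb there were 4.12 per Mb up to 20 kb, 3.32 between 20 and 50 kb, 2.93 between 50 and 100 kb, 1.80 between 100 and 200 kb and 0.700 beyond 200 kb. This gene body includes long genes with no region. Over the listed protein-coding genes alone the fall was milder, with 17.8, 13.2, 11.0, 7.59 and 4.75 per Mb in the same ranges beyond 10 kb. A region in several genes was counted in each. Within host genes of at least 50 kb, the part beyond 10 kb was cut into 5 equal lengths, and the 1593 deep regions there numbered 433 (27.2%), 373, 309, 273 and 205 (12.9%) from the first to the last. Within 1 kb of the gene end lay 27 regions (1.37%) and within 10 kb 221 (11.2%), where those stretches made up 0.837% and 8.36% of host body beyond 10 kb. The rule gives a region to another listed gene if that start is nearer, which removes regions from the far part of a host. Counting every region that lay beyond 10 kb in any listed gene gave 2224.

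**Figure D2:**
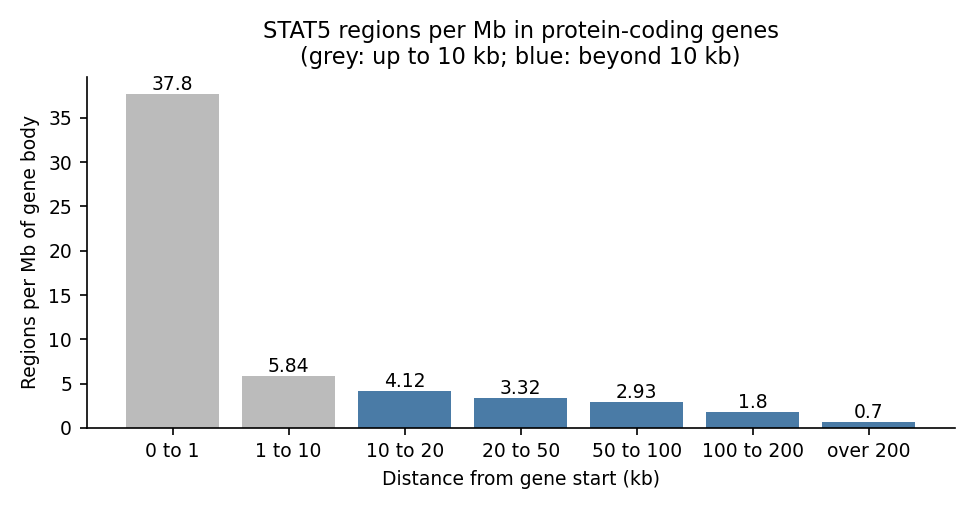
Regions per Mb of gene body (vertical axis, from 0) in 7 ranges of distance from the gene start in kb, over all protein-coding RefSeq genes. The value falls from 37.8 in the first 1 kb to 4.12 at 10 to 20 kb and 0.700 beyond 200 kb.

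Heights could be taken for 420 deep regions (21.4%), those listed with a gene that has a single region, and the other 1547 have none of their own. The median IL-2 height of the 420 was 20 (interquartile range 15 to 31, range 9 to 128), and the median control height 4 (3 to 5, range 0 to 12). All 420 were higher with IL-2 than in control. Regions within 1 kb of a start had medians of 16 and 4, those in genes at 1 to 10 kb 18 and 5, upstream regions 22.5 and 5, and downstream regions 21 and 4. Heights could be taken for 64.9% of regions at starts, 34.2% at 1 to 10 kb, 40.6% upstream and 37.1% downstream. Heights and ratios of the classes thus rest on unlike shares of their regions. Order-statistic 95% intervals of the IL-2 median were 19 to 22 for deep regions, 16 to 17 at starts, 17 to 20 at 1 to 10 kb and 20 to 24 upstream. They cover the spread over regions of 1 library and no replicate error. Heights of at least 50 were found at 40 deep regions (9.52%) and at 240 of all 2245 regions with a height (10.7%). The highest of the 420 heights was 128, and the highest in each other class, among regions with a height, was between 148 and 238. Hosts whose regions are all deep held higher peaks that are not among the 420, up to 212 in Tasp1.

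The ratio of heights, with 5 added to each, was at least 2 for 369 of the 420 deep regions (87.9%), where the background over all regions with a height was 80.4%. It was at least 4 for 97 (23.1%, background 21.1%) and at most 0.5 for 0 (background 0%). Deep regions had a median log2 ratio of 1.46, with quartiles of 1.15 and 1.93, beside 1.32 over all 2245 regions, 1.22 at starts, 1.35 at 1 to 10 kb, 1.49 upstream and 1.56 downstream. The deep regions thus had a larger share at or above 2 than regions at starts (75.9%), with less difference from upstream (84.1%) and downstream (85.9%) regions. No class was tested against another, since regions of 1 library are not replicates. These regions were called in the IL-2 library, which selects for ratios above 1, and the sources used here do not give how the libraries were scaled. With both set to the same median height, IL-2 exceeded control at 233 deep regions and fell short of it at 181, beside 1090 and 1133 of all 2245.

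**Figure D3:**
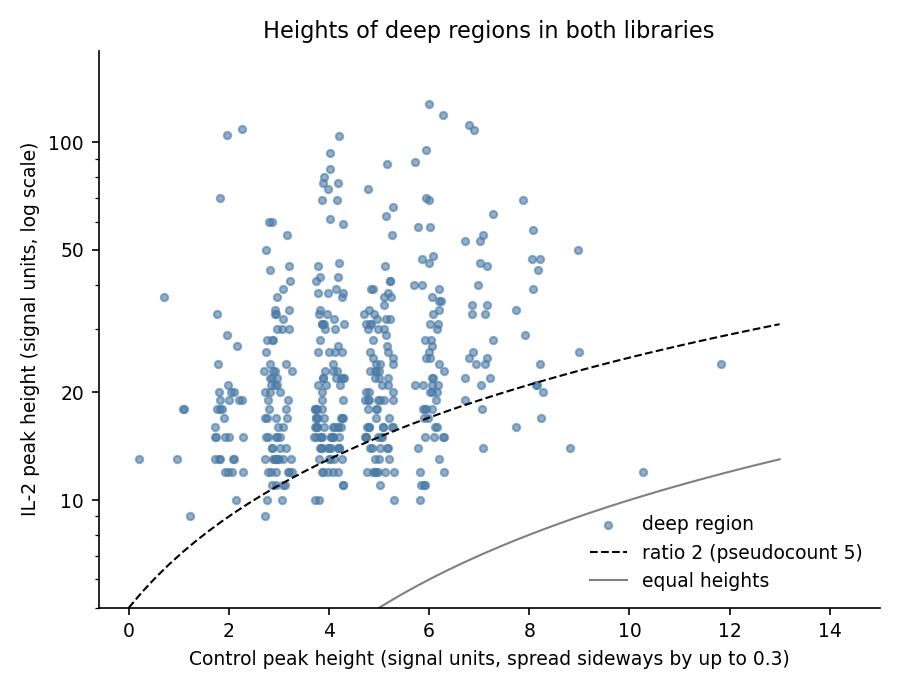
Peak height in the control library (horizontal axis, signal units) and the IL-2 library (vertical axis, log scale) for the 420 deep regions with a height, 1 point each, spread sideways for visibility. Every point lies above the grey line of equal heights, and 369 lie on or above the dashed line of a ratio of 2.

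Median heights lay between 18 and 22 in every range of distance. The median IL-2 height was 20 at 10 to 20 kb (125 regions), 21 at 20 to 50 kb (153), 18 at 50 to 100 kb (83), 21.5 at 100 to 200 kb (36) and 22 beyond 200 kb (23). Control medians stayed between 4 and 5. A ratio of at least 2 was met by all 23 regions with a height beyond 200 kb and by 68 of 83 at 50 to 100 kb (81.9%).

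Among the 420 regions with a height, the highest lay 43.50 kb into Pik3cd, which encodes the PI3 kinase catalytic subunit delta of lymphocytes, and reached 128 in the IL-2 library from 6 in the control library (log2 ratio 3.60). It lay at 149658128 on chromosome 4 (mm10) and its height came from Clstn1, which lists it as its single region. Nek6, a mitotic kinase, had 6 and 119 at 24.78 kb, and Nfkbiz, an atypical IκB protein that directs NF-κB target genes, had 7 and 112 at 18.39 kb. Each of these stood far above the median deep height of 20 after IL-2, while its control height was within 3 units of the control median. Map2k5, the kinase upstream of ERK5, had 2 and 109 at 102.52 kb, and Ptpn4, a tyrosine phosphatase, 2 and 105 at 123.86 kb. These 2 regions had the largest log2 ratios, 4.03 and 3.97, because their control heights were low beside similar IL-2 heights. Klhdc1 had 4 and 104 at 16.22 kb. Crem, a cyclic AMP-responsive transcription factor, had 4 and 93 at 56.44 kb.

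Further deep regions among the 20 highest, ties included, lay in genes of varied roles. Tmprss6, a serine protease known from iron metabolism, had 7 and 108, with the height taken from its neighbour Kctd17. Nsmce1, a subunit of the SMC5/6 complex, had 6 and 95, taken from Kdm8. Selp, which encodes P-selectin, had 6 and 88, and Ncoa7 had 5 and 87. Cd200r3 had 4 and 84. The remaining entries stood between 69 and 80 with IL-2 and between 2 and 8 in control. They were Ctnnd2 (80), Dclre1a and Sctr (77 each), Cngb1 and Ell (74 each), Hdac7, a class IIa histone deacetylase, and Wasf2, an actin regulator (70 each), and 4 regions tied at 69 in Aspn, Map3k1, Nsmce2 and Ryr1. In the 23 regions at or above 69 the control height lay between 2 and 8, within the range of all deep regions.

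**Figure D4:**
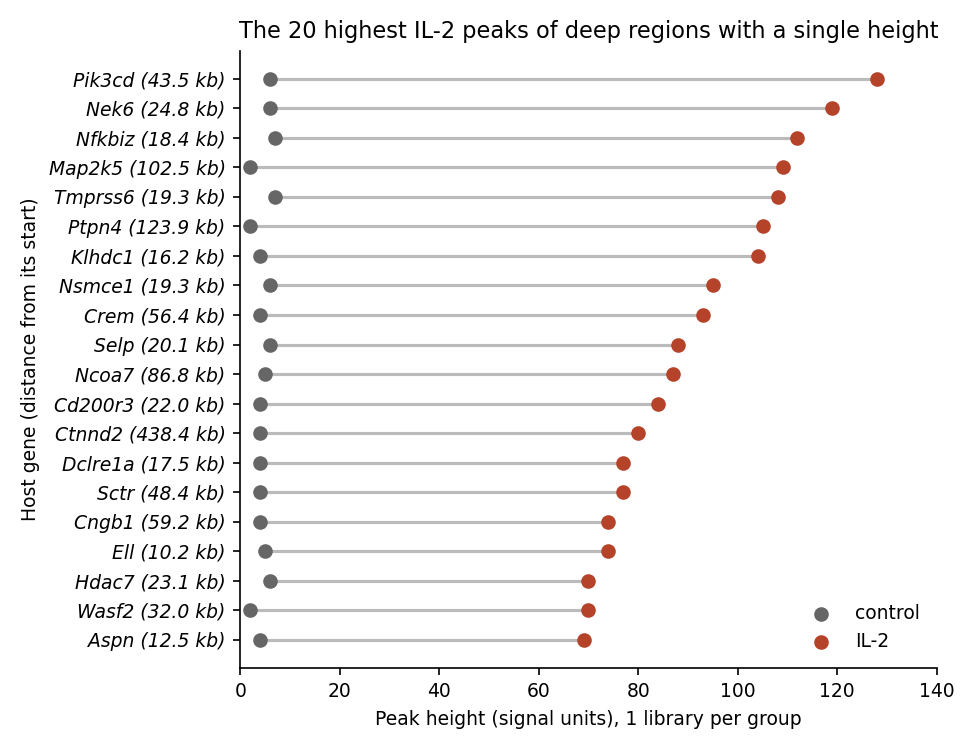
Peak height in signal units (horizontal axis) in control (grey) and with IL-2 (red), 1 library each, for the 20 highest of the 420 deep regions with a height, named by host gene and distance from its start. IL-2 heights run from 69 to 128 and control heights from 2 to 7. Of 4 regions tied at 69, the 1 in Aspn is drawn.

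At the other end, the smallest log2 ratio was at a region in Tnrc18 (control 10, IL-2 12, log2 ratio 0.18). Lrrc6 had 9 and 14, Sorl1 6 and 10, Tmem194b 5 and 10, and Fam117a, Focad and Srfbp1 6 and 11 each. Fbxw11 and Ggact had 6 and 12 each, and Mboat2 7 and 14. These regions combined low IL-2 heights with control heights of 5 or more, and each was still higher with IL-2. Intervals called in the control library numbered 11 in all. Of these, 1 lay within 500 bp of a deep region, in Prkce (133.51 kb into the gene), which has no height of its own. The same count was not made for the other classes.

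Many hosts held several deep regions. Of the 1059 hosts, 659 had 1, 202 had 2, 86 had 3 and 112 had 4 or more, and those 112 held 646 of the deep regions (32.8%). Hosts were long, with a median length of 85.8 kb (interquartile range 46.5 to 149 kb). The 2277 other listed genes over 10 kb had a median of 27.2 kb. Among protein-coding genes the share with a deep region rose from 1.61% at 10 to 30 kb to 8.78% at 30 to 100 kb and 19.8% at 100 to 300 kb, and was 17.3% above 300 kb. Neighbouring deep regions of the same gene were a median of 8.63 kb apart (908 gaps), and 495 of the gaps (54.5%) were within 10 kb. By biotype, 1017 hosts were protein-coding and 29 were long noncoding RNA genes. A region within 1 kb of the gene start was also present in 190 hosts (17.9%), and 590 hosts had deep regions only.

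Akap13, a kinase-anchoring protein, had the most, 17 deep regions from 30.80 to 259.41 kb into a gene of 299.08 kb. Over its 18 regions the mean height was 4.67 in control and 32.28 with IL-2, with a highest peak of 113. Foxp1, a transcription factor that keeps T cells quiescent, had 14 between 17.11 and 406.55 kb (means over 18 regions 5.5 and 41.61, highest peak 130). Atxn1 had 12 (5.25 and 27.58) and Ablim1, an actin-binding protein, 11 (4.64 and 21), and these were all the regions of both genes. Ppm1h, Ubac2 and Wwox had 10 each, and all 10 of Wwox lay beyond 440.32 kb. Ninj2 had 9, and Asap1, Cd226, Coro2a, Inpp4b, Prkch, Ptprj, Sept9 and Thada had 8 each. Of these, Cd226 is an activating receptor of T and NK cells, Inpp4b a lipid phosphatase and Prkch a protein kinase C. For the length available beyond 10 kb, the densest hosts with 4 or more were Coro2a (14.5 deep regions per 100 kb), Ets1 (13.5), Gm5149 (12.9) and Cd226 (12.7). For the 112 hosts with 4 or more, gene means ran from 13.8 (Tcf12) to 62.29 (Pik3r5) with IL-2 and from 3.25 to 6.4 in control, and all 112 had a ratio of means of at least 2. Over all hosts that share was 92.5% and over all listed genes 83.8%. A mean over many regions varies less than a single height, and 659 of all hosts had 1 deep region. The shares are thus not like for like. Hosts with more regions had a higher highest peak, a median of 72 against 24 for hosts with 1 deep region, but a maximum over more regions is larger by construction.

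**Figure D5:**
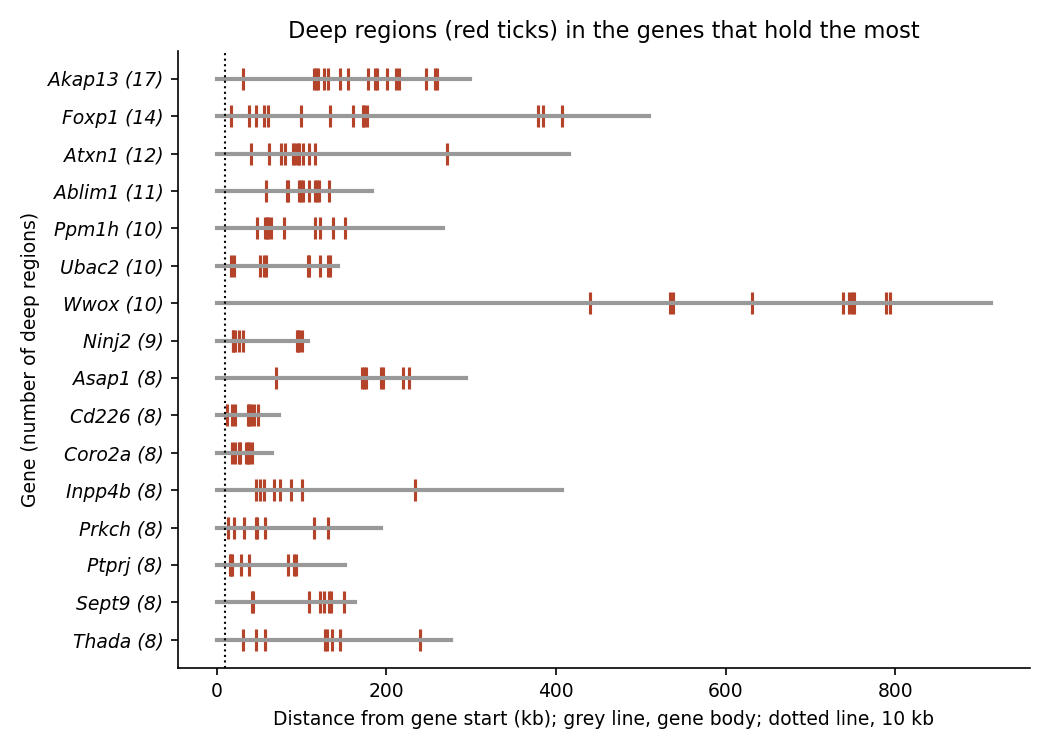
Positions of deep regions (red ticks) along the gene body (grey line) of the 16 genes with the most, in kb from the gene start. The dotted line marks 10 kb, and counts in brackets run from 17 in Akap13 to 8.

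Where a host had 2 regions, both deep, the highest peak and the mean give both IL-2 heights, though not which is which. There were 96 such hosts. The higher region had a median of 31, the lower a median of 15, and the median quotient was 1.72, with 37 of 96 pairs differing at least 2-fold. Tasp1, the protease that cleaves MLL, had 212 and 17, and Rere, a nuclear receptor corepressor, 145 and 24, at positions 9.58 and 3.62 kb apart. Plcl2, a phospholipase-like protein, had 127 and 35, Agpat3 98 and 11, and Hdac4 91 and 11. Rtkn2 had 72 and 63. A single host could thus hold a high and a low region within a few kb, or a pair of like height. Heights from these pairs joined to the 420 gave a median of 20 over 611 values, with a Dpp4 region that is in both sets counted once. In the 178 hosts with 2 or more regions, all deep, the median of the gene means was 25.45 with IL-2 and 5 in control.

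Of 30 known IL-2 STAT5 targets, 13 are longer than 10 kb and 5 of these held deep regions, 18 in all. The share of all 13958 protein-coding genes over 10 kb that held one was 7.28%, and the shares of the same length classes would give 1.00 of the 13. Both shares cover listed and unlisted genes. Among the 3335 listed genes over 10 kb, 1059 were hosts, and 28 of the 30 targets, of any length, were listed. All 13 targets over 10 kb were listed, so their like-for-like count is 5 of 13, beside 1059 of 3335. Those 3335 genes are not matched to the targets for length. For this list and those below, a count above the length-class value does not separate holding deep regions from being listed at all. The lists were chosen with earlier results of these data known, so their counts are descriptions. Bcl2, which protects cells from apoptosis, had 7 deep regions from 73.15 to 125.27 kb, 6 of them between 97.11 and 125.27 kb, in the far part of a gene of 176.11 kb. Its mean over 11 regions was 5.82 in control and 57.09 with IL-2. Cdk6, the cell cycle kinase, also had 7, at 11.40, 39.43, 116.81, 133.70, 150.34, 155.43 and 172.42 kb, with means of 5.38 and 46.88 over 8 regions. Bcl2l1, the gene of Bcl-xL, had deep regions at 28.42 and 42.02 kb, Il2ra, the IL-2 receptor alpha chain, had 1 at 12.47 kb, and Prdm1, the gene of Blimp-1, 1 at 10.14 kb. The gene means of Bcl2l1 (6.75 and 89), Il2ra (5.5 and 81.17) and Prdm1 (5.25 and 35.25) include regions that are not deep.

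Transcription factors and receptor signalling genes of T cells held many deep regions. Of 44 T cell transcription factors over 10 kb, 25 held 88 deep regions, where the length classes would give 5.63 genes. Beside Foxp1, Ets1, Nfkb1 and Rora had 7 each, Fli1 and Ikzf1 6 each, and Stat4 and Tox 5 each. Ets1 and Fli1 are ETS family factors, Ikzf1 is Ikaros, Stat4 transmits IL-12 signals and Tox is known from exhausted T cells. Gene means were 4.67 and 40.33 for Nfkb1, 5.13 and 42.75 for Stat4, 5.9 and 36.1 for Ets1 and 6.14 and 21.86 for Rora. All 25 had a ratio of gene means of at least 2, as did 92.5% of all hosts. Listed members of any length numbered 40. The single region of Zbtb16, the gene of PLZF, had 6 and 21.

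Of 29 T cell receptor signalling genes over 10 kb, 17 held 54 deep regions (3.25 by length class), and 28 members of any length were listed. A ratio of gene means of at least 2 was found in 15 of the 17, beside 92.5% of all hosts. Fyn, a Src family kinase, and Ubash3b, a phosphatase that restrains the receptor, had 7 each (means 5.75 and 44.38, and 5.86 and 29.29). Prkcq, protein kinase C theta, had 6 with means of 4.88 and 51.63 over 8 regions. Cblb, a ubiquitin ligase that limits activation, had 6, all its regions, with 4.5 and 35.5. Dgkz, which removes diacylglycerol, had a single deep region of 5 and 12, with a log2 ratio of 0.77. The 4 deep regions of Tcrb, 3 of Tcrd and 1 of Igk count among the 1967, although those entries are whole antigen receptor loci and no single genes.

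Among surface receptors, 7 of 20 costimulatory and inhibitory receptors over 10 kb were hosts (1.04 by length class). Cd226 led with 8, and Havcr2, the gene of TIM-3, and Slamf1 had 2 each (gene means 5.8 and 36.6, and 5.25 and 56.25). Icos, Btla, Tnfrsf8 and Cd6 had 1 each. Cytokine receptors were hosts for 5 of 26 (1.46 by length class), with Il6ra holding 3 (5.33 and 47), Il18r1 2 (5.2 and 46.8), and Il12rb2, Il1r1 and Tgfbr2 1 each. Adhesion and homing genes were hosts for 5 of 19 (1.10 by length class), with Cd44, the hyaluronan receptor, at 4 and 45 for its single region, Itga6 with 3 and Itga4 and Cx3cr1 with 1 each. All hosts of these 3 lists had a ratio of gene means of at least 2, as did 92.5% of all hosts. Listed members of any length numbered 21 costimulatory and inhibitory receptors, 16 cytokine receptors and 20 adhesion and homing genes. The 16 listed cytokine receptors are all over 10 kb. Their like-for-like count is thus 5 of 16, beside 1059 of the 3335 listed genes over 10 kb.

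In the signalling and enzyme lists, deep regions were again spread over part of the members. PI3 kinase, mTOR and lipid signalling genes were hosts for 8 of 24 (3.17 by length class). Beside Pik3cd with 5 deep regions and Inpp4b with 8, Pik3r5 had 4 (gene means 5.57 and 62.29, highest peak 181), and Pik3r1 and Pik3ap1 had single regions of 4 and 26 and 4 and 16. Tyrosine phosphatases were hosts for 10 of 24 (3.15 by length class), with Ptprj at 8, Ptprk at 5 and Ptpre at 4 (5.25 and 47.25). The single regions of Ptpn4 and Ptpn14 had 2 and 105 and 5 and 32. MAP kinase genes were hosts for 8 of 30 (3.26 by length class). Ksr1, a scaffold of the ERK cascade, had 3, all its regions, with means of 5 and 72, and the single regions of Map3k1, Map3k5 and Map3k2 had 4 and 69, 5 and 37, and 4 and 17. GTPase regulators and cytoskeletal genes were hosts for 16 of 34 (4.48 by length class), led by Wipf1 with 7 (5.14 and 30.57) and Dock10 with 6 (4.88 and 23.63). Dock8, Ezr and Fmnl1 had single regions of 4 and 19, 5 and 15, and 3 and 13. Listed members of any length numbered 13 PI3 kinase, mTOR and lipid, 12 phosphatase, 17 MAP kinase and 24 GTPase and cytoskeletal genes.

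Chromatin and transcription genes were hosts for 15 of 42 (5.58 by length class), with 18 deep regions, so that nearly all had 1. The single regions of Hdac7 (6 and 70), Cdk13 (3 and 33), Smarca2 (5 and 21) and Ncoa2 (5 and 16) had heights of their own. So did that of Dnmt3a given above. A ratio of gene means of at least 2 was found in 13 of the 15 hosts, beside 92.5% of all hosts. Ubiquitin enzymes were hosts for 9 of 30 (4.40 by length class), with Usp48 (5 and 39), Peli1 (5 and 24), Trip12 (5 and 22), Nedd4 (5 and 18) and Wwp2 (4 and 15) measured singly. Survival and apoptosis genes were hosts for 7 of 18 (1.27 by length class), among them Tnfaip8 with 3 (4.8 and 41.4) and Casp8 with 1 (3.75 and 47). Cell cycle genes were hosts for 3 of 17 (0.852 by length class), Cdk6 with 7 and Rb1 (5 and 25) and Rbl1 with 1 each. Listed members of any length numbered 32 chromatin, 14 ubiquitin, 16 survival and 10 cell cycle genes. The median gene mean with IL-2 was 24 over all hosts. It was 19.67 over the chromatin hosts, 19 over the ubiquitin hosts, 41.4 over the survival hosts and 57.09 over the 5 IL-2 STAT5 targets. Gene means take in regions that are not deep, so these values do not measure deep regions alone. Bcl2 and Bcl2l1 are in both the survival and the target list.

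In the lists of genes of other cell types, few members were hosts. These lists were chosen by hand, and hosts outside them were not sorted by cell type. Of 32 long neuronal genes, with a median length of 1167 kb, 1 was a host, where the length classes would give 5.53. The longest class takes in all genes over 300 kb, so it is not matched to that median length. The neuronal host was Ctnnd2, the gene of delta-catenin, with 4 and 80 at 438.43 kb. No gene was a host among 7 B cell, 6 myeloid and 4 erythroid genes over 10 kb, where the length classes would give 0.594, 0.350 and 0.0645. Such small lists cannot separate 0 from these values.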

How the data were processed

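The data are STAT5 ChIP-seq of mouse effector CD8 T cells, 1 control and 1 IL-2 library. Per the submitters' processing notes, BWA and mm10 were used. The authors deposited 1 table of genes near regions, whose peak heights are signal values of at least 0. Not given in the sources used here are the peak caller, the extent of a region, the depth and any scaling, so depth and counting error are unknown. Other columns of per-sample values numbered 0.

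The table also holds distances, positions, interval counts and flags, used as deposited. Regions were matched by interval name. A region at the same distance from 2 genes went to the one that holds it. Heights came from genes with 1 region (the table's ActRegCount), also where that gene was not the nearest. The log2 ratio used a pseudocount of 5, which understates the fold of low heights. Gene means are the authors' mean height over all regions of a gene. Of 1059 hosts, 1051 matched a RefSeq table of GRCm38.p6. Wilson and order-statistic intervals have a confidence level of 95%. Expected hosts by length class are the summed shares over all protein-coding genes of 10 to 30, 30 to 100, 100 to 300 and over 300 kb.

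Members and lists were chosen with earlier results of these data known. Genes named are the 20 highest IL-2 heights, the 10 largest and smallest ratios, the 10 farthest regions, genes with 4 or more deep regions (in full from 8), IL-2 STAT5 targets, and up to 4 genes of each other list by height or number; further list members, genes at internal starts and hosts with 2 regions were chosen with their values in view. Some list members are not reported here. No statistical test was run. The height rules were run on simulated data, where a height from a gene with 1 region is recovered by construction. Full recovery of heights solved from gene means was not required there. Analyses used Python 3.11.15, pandas 2.3.3 and scipy 1.17.1.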

Additional observations from a re-analysis of the deposited data

How the results depend on the processing

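No paired analysis was possible because neither group had a second library, and no replicate could be left out. The number of deep regions was 1967. It ranged from 1507 (beyond 20 kb) to 2271 (beyond 5 kb) and was 1933 where every listing gene had to hold the region beyond 10 kb. Added after seeing the data, ties in file order gave 1966 and leaving out antigen receptor loci 1959. A pseudocount of 1 moved the median log2 ratio from 1.46 to 2.09 and a pseudocount of 10 to 1.08, members of higher mean height gave 1.81, and setting both libraries to equal medians gave 0.0642. Of the 369 regions at or above a ratio of 2, scaling left 27 and a pseudocount of 10 left 242, while there were 238 among the 244 members of higher mean height and 408 using a pseudocount of 1. None of these settings gave a region at or below 0.5. Scaling removes the overall difference between libraries by construction, and the median log2 ratio of all 2245 regions went from 1.32 to -0.0161. Of 54 named regions, 21 then had a log2 ratio below 0. They were 11 that had a ratio under 2 before scaling, namely Dgkz and the 10 lowest, down to -0.968 in Tnrc18, and 10 that had a ratio of at least 2: Ezr -0.263, Ncoa2 -0.225, Zbtb16 -0.186, Nedd4 -0.152, Wwp2 -0.111, Pik3ap1 -0.0731, Smarca2 -0.0489, Map3k2 -0.0361, Fmnl1 -0.0202 and Trip12 -0.0161. The median IL-2 height was 20 also beyond 20 kb, with 470 heights solved from gene means and with pairs added. The motif in windows around all deep regions, with its alternatives of width and stricter letters, was not run, since sequence was at hand only for start windows. Heights rest on the 420 regions of genes with 1 region, and whether the other 1547 differ is not known.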

Other observations

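Some deep regions with a height lay very far from the start of their gene. Fhit had 4 in control and 38 with IL-2 at 708.88 kb, Dach2 2 and 24 at 528.70 kb, Myo16 3 and 37 at 327.04 kb, and Esr1, the estrogen receptor gene, 2 and 13 at 359.92 kb. The Fhit region lay 306 bp from another annotated start of Fhit. Dach2 and Adarb2 (4 and 16) held their region in the last part of the gene, at 98.2% and 97.2% of its length. They are 5 of the 10 farthest regions with a height, chosen with their values in view.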
